A study of Mus musculus with 6 samples.

Results

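Transcription factor and coactivator genes known from the intermediate mesoderm and from the network of sine oculis (Six2 and its relatives) and EYA proteins were followed in gastruloids with and without silencing of *T-UCstem1*. They were chosen by name as *Pax2*, *Pax8*, *Osr1*, *Lhx1*, *Wt1*, *Emx2*, *Eya1*, *Six2* and *Sim1*, so that the group holds 9 of the 35565 mouse genes listed, and 8 of the 9 were among the 15110 genes with enough counts to be tested. Gastruloids are aggregates of embryonic stem cells (ESCs) that elongate in culture and form cell types of the trunk. Bulk RNA sequencing covered gastruloids on day 5, and both groups had been pulsed with 3 µM CHIR99021, which blocks GSK3 and so switches on WNT signalling. The Control (NT) group had 3 libraries, from ESCs with a non-targeting construct (WT in the sample labels; Control below), and the *T-UCstem1* KD-1 group also 3, from 1 clone in which this ultraconserved long non-coding RNA is knocked down. Both lines derive from the mouse ESC line TBV2 129/SvP, and with 1 line in each group the silencing cannot be told apart from other differences between the lines. Total counts were 20982249, 34694406 and 56674906 for Control and 41180012, 42407550 and 85561026 for KD-1, and values are given below from the lowest to the highest depth. The libraries of a group are described as biological replicates, but the sources used here do not say that they came from separate cultures, so the p-values measure the spread between these libraries, which may be technical.

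The intermediate mesoderm is the strip of embryonic mesoderm between the somites and the lateral plate, and it gives rise to the kidneys and the genital ducts. *Osr1* marks its early progenitors, *Pax2*, *Pax8* and *Lhx1* are needed for the nephric duct that forms within it, and *Wt1*, *Emx2*, *Eya1*, *Six2* and *Sim1* act in the kidney mesenchyme, the duct epithelium or neighbouring tissue. Sine oculis proteins bind DNA and EYA proteins are their coactivators, and the same pairs also work in somites, sensory placodes and muscle. None of these genes is restricted to the kidney lineage. *Pax2*, *Pax8* and *Lhx1* are used again in neurons of the hindbrain and spinal cord, *Emx2* in the forebrain, and *Sim1* in somites and the hypothalamus.

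The 9 genes did not move in one direction. *Eya1*, *Six2*, *Sim1*, *Lhx1*, *Wt1* and *Emx2* were lower in KD-1 gastruloids, by between 3.88-fold (*Wt1*) and 41.5-fold (*Sim1*), whereas *Pax2* and *Pax8* were higher by 11.8-fold and 12.4-fold, and *Osr1* was close to absent from both groups. Calls needed a change of over 1.5-fold in either direction and an adjusted p below 0.05 in edgeR's quasi-likelihood test over all genes with Benjamini-Hochberg adjustment. In all, 6 members were called lower and 2 higher. Of all the genes tested, 18.1% were called lower, 19.7% higher and 37.7% either way. DESeq2 called the same 6 lower and 2 higher, where it called 31.9% of the 18745 genes it gave an adjusted p. The groups did not overlap in any of the 8 members tested, and this was so in 70.6% of all genes tested. The median log2 fold change (log2FC) of the 8 was -3.24, against -0.01 over all genes tested. These counts are descriptions, since a gene passes the filter on low counts if either group is high enough: *Lhx1*, *Wt1*, *Eya1* and *Sim1* reached the filter's minimum of 0.239 CPM in every library, while *Pax2* and *Pax8* did so in every library of KD-1 alone, and *Six2* and *Emx2* in every library of Control alone. In these bulk samples, fewer cells that express a gene and less of its RNA per cell cannot be told apart.

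**Figure D1:**
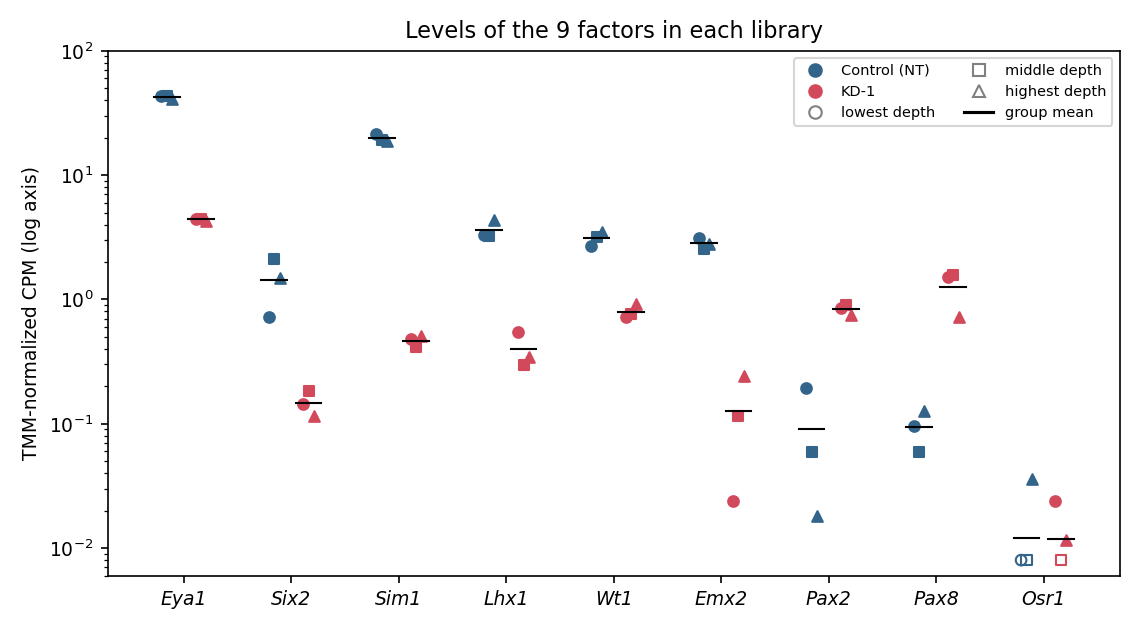
TMM-normalized CPM of each of the 9 factors on a log axis, 1 point for each library, Control in blue and KD-1 in red, with the group mean as a bar; open points at the lower edge are libraries with 0 counts. The 6 factors on the left lie lower in KD-1, *Pax2* and *Pax8* lie higher, and *Osr1* has at most 2 counts in any library.

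*Pax2* and *Pax8* encode paired-box factors that act partly in place of each other in the nephric lineage. *Pax2* (ENSMUSG00000004231, GRCm39 chromosome 19, 44735057 to 44826703, plus strand) had 4, 2 and 1 counts in the Control libraries and 36, 39 and 65 in the KD-1 libraries. As TMM-normalized CPM (counts scaled to library size, itself adjusted by trimmed means) these are 0.193, 0.0592 and 0.0180 against 0.859, 0.896 and 0.748. All KD-1 libraries lay well above all Control libraries, which held at most 4 reads of the gene. The log2FC was 3.56 (standard error, SE, 0.62, 95% interval 2.15 to 4.96, adjusted p = 0.0010). It moved to 4.50 without the shallowest and to 2.84 without the deepest Control library, and *Pax2* stayed called in both. The ratio of the summed counts, 140 against 7, gave a level 13.3 times as high in KD-1 (95% exact interval 6.28 to 33.6, counting error only).

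*Pax8* (ENSMUSG00000026976, chromosome 2, 24309418 to 24365617, minus strand) had 2, 2 and 7 counts in Control and 63, 68 and 63 in KD-1. Its levels were 0.0965, 0.0592 and 0.126 CPM in Control and 1.503, 1.56 and 0.725 in KD-1. The deepest KD-1 library was the low one of its group, and it still lay above every Control library. The log2FC was 3.63 (SE 0.51, 95% interval 2.47 to 4.79, adjusted p = 3.0e-04). Exons of a non-coding gene on the opposite strand, *Gm13415*, overlap those of *Pax8*, and without a stated use of strand their reads cannot be told apart.

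The ranges of the ratio between the 2 paralogs overlapped between the groups. The log2 ratio of *Pax2* to *Pax8* (0.05 CPM added to each) averaged -0.21 ± 1.07 (SD, n = 3) in Control and -0.50 ± 0.47 (SD, n = 3) in KD-1 (exact two-sided permutation test, p = 0.70, adjusted p = 0.80 over 5 paralog pairs). The Control ratio rests on 1 to 4 counts of *Pax2* and 2 to 7 of *Pax8* in a library. The group difference of -0.285 became 0.187 without the shallowest Control library. These values therefore do not show that the balance of the pair was unchanged. The third gene of this subfamily, *Pax5*, a factor of B cells and of the boundary between midbrain and hindbrain, had 1, 15 and 18 counts in Control and 34, 36 and 109 in KD-1. It rose as well, with a log2FC of 1.71 (SE 0.51, adjusted p = 0.016), and was no longer called without the deepest KD-1 library (1.501, adjusted p = 0.090). Per length, the 3 genes together had 0.171 ± 0.0260 in Control and 1.36 ± 0.173 in KD-1 (SD, n = 3 each; counts per kilobase of exon, scaled to the summed level of all genes as in TPM).

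The bases before the start sites of *Pax2* and *Pax8*, the pair that rose, are shown beside those of *Lhx1*, a partner of both in the nephric duct that fell. They were taken from a table of RefSeq promoters (build GRCm38.p6), which matched 6 of the 9 members (*Pax2*, *Pax8*, *Lhx1*, *Emx2*, *Six2* and *Sim1*), and were found in GRCm39 by exact match at chr19:44734790-44735039 and chr19:44743941-44744190 (*Pax2*, plus strand), chr2:24365618-24365861 (*Pax8*, minus strand) and chr11:84416369-84416610 (*Lhx1*, minus strand). Each window ends at the start site or at the first base of an annotated exon of the gene, and exons of the antisense gene *Lhx1os* reach into that of *Lhx1*. Capitals mark a CCAAT box, CCAAT or its reverse complement ATTGG, a motif added to the search after the sequences had been read.
Pax2, first start: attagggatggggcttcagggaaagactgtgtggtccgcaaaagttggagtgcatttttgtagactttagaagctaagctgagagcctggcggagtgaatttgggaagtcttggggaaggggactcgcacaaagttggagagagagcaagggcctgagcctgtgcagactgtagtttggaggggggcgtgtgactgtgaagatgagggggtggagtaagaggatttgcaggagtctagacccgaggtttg
Pax2, second start: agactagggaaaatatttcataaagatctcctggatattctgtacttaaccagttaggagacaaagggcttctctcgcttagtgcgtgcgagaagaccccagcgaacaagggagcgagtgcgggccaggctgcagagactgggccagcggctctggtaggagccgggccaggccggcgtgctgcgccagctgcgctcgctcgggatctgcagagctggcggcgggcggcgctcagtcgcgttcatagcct
Pax8: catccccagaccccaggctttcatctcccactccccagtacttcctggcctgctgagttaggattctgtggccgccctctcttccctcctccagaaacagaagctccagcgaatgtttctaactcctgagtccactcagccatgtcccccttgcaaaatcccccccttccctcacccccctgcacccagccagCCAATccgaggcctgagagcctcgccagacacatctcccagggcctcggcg
Lhx1: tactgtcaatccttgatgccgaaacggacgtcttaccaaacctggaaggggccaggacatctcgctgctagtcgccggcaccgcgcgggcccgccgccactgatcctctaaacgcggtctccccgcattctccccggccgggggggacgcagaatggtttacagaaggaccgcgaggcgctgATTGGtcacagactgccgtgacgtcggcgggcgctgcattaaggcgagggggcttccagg
Over the 250 bases before the start, *Pax8* held 6 CpG dinucleotides, the first 2 *Pax2* starts 5 and 20, and *Lhx1* 26, where the median of 32851 promoter windows was 6. A CCAAT box was found in the windows of *Pax8*, *Lhx1*, *Emx2* and *Six2* and in 33.8% of all windows, in genes that rose and in genes that fell. On either strand, TATAAA was found in the window of *Sim1* alone (12.4% of all windows), and TCAGGTTTC (the MEF3 site that Six2 and its relatives bind, 0.387%), CTTTGAT (TCF/LEF, 3.21%), ATTTGCAT (octamer, 1.60%), AGGTCA (nuclear receptor element, 14.0%) and CACGTG (E-box, 6.02%) were found in no member's window. These matches are descriptions of letters only. The counts are summed over a gene, so they do not say which *Pax2* start was used.

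*Osr1* (ENSMUSG00000048387, chromosome 12, 9538061 to 9631513, plus strand), a zinc finger gene that is among the first to be expressed in the intermediate mesoderm, had 0, 0 and 2 counts in Control and 1, 0 and 1 in KD-1. A count of 0 allows up to 0.143 CPM in the shallowest library, taking 3 counts as the limit, so *Osr1* was under this limit in every library, too low at this depth for a difference to be detected. Its paralog *Osr2* had 4, 3 and 17 counts in Control and 3, 9 and 3 in KD-1 and was not tested. Since *Pax2*, *Pax8* and *Osr1* were all at or near the counting limit in Control, the members expressed there did not include the combination that marks early intermediate mesoderm, and the genes are therefore described by name and not as a lineage.

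*Lhx1*, *Wt1* and *Emx2* were expressed at a few CPM in Control and fell in KD-1. *Lhx1* (ENSMUSG00000018698, chromosome 11, 84408803 to 84416368, minus strand), a LIM-homeodomain gene of the nephric duct, head organizer and interneurons, had 3.28, 3.26 and 4.37 CPM in Control and 0.549, 0.299 and 0.345 in KD-1. The log2FC was -3.22 (SE 0.28, 95% interval -3.85 to -2.59, adjusted p = 1.8e-05), with no overlap between the groups. Its paralog *Lhx5*, a gene of neural progenitors and interneurons, went the other way. It had 0, 2 and 2 counts in Control and 65, 59 and 103 in KD-1, a log2FC of 5.13 (SE 0.50, adjusted p = 3.8e-05). The log2 ratio of *Lhx1* to *Lhx5* was 5.55 ± 0.58 in Control and -1.69 ± 0.30 in KD-1 (SD, n = 3 each), so that the more abundant gene of the pair changed from *Lhx1* to *Lhx5*, also per length (2.46 against 0.0348 in Control, 0.298 against 1.67 in KD-1). With *Lhx5* at 0 to 2 counts the Control ratio depends on the 0.05 CPM added, and the group difference of -7.24 became -4.01 with 0.5 CPM added. The exact permutation test gave p = 0.10, the smallest that 3 libraries against 3 allow (adjusted p = 0.25).

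*Wt1* (ENSMUSG00000016458, chromosome 2, 104956625 to 105003961, plus strand), a zinc finger gene of the kidney mesenchyme, gonad and mesothelium, had 2.70, 3.20 and 3.47 CPM in Control and 0.716, 0.759 and 0.921 in KD-1. It showed the smallest fall of the 6, with a log2FC of -1.96 (SE 0.21, 95% interval -2.43 to -1.48, adjusted p = 6.3e-05). *Emx2* (ENSMUSG00000043969, chromosome 19, 59446804 to 59453789, plus strand), a homeobox gene of the urogenital ridge and the dorsal forebrain, had 3.13, 2.55 and 2.82 CPM in Control. In KD-1 it had 1, 5 and 21 counts, or 0.0239, 0.115 and 0.242 CPM. The Control libraries were close to each other, while the KD-1 libraries spread over a wide range below them. The log2FC of *Emx2* was -4.25 (SE 0.47, 95% interval -5.32 to -3.18, adjusted p = 7.6e-05), and it became -5.26 without the deepest KD-1 library, in which the gene was highest. Its paralog *Emx1* had at most 2 counts in any library. *Wt1*, *Emx2* and *Lhx1* each have an antisense gene with overlapping exons (*Wt1os*, *Emx2os* and *Lhx1os*), whose reads could be among those counted.

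*Eya1* was the most abundant member in both groups. It encodes a coactivator of sine oculis proteins that is also a phosphatase (ENSMUSG00000025932, chromosome 1, 14239167 to 14380543, minus strand), and it had 43.4, 42.9 and 40.6 CPM in Control and 4.44, 4.44 and 4.31 in KD-1. Both groups were tight and far apart, with a log2FC of -3.27 (SE 0.07, 95% interval -3.44 to -3.10, adjusted p = 1.5e-08). The 871 genes tested on chromosome 1 had a median log2FC of 0.49, with 40.2% called higher and 7.81% lower, so that *Eya1* moved against its chromosome, and relative to that median its change was -3.76.

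*Six2* (ENSMUSG00000024134, chromosome 17, 85991665 to 85996020, minus strand), which keeps nephron progenitors undifferentiated, had 0.723, 2.13 and 1.48 CPM in Control and 0.143, 0.184 and 0.115 in KD-1, from 6, 8 and 10 counts. The shallowest Control library was low for its group but remained above all of KD-1. The log2FC was -3.34 (SE 0.48, 95% interval -4.43 to -2.25, adjusted p = 3.4e-04). *Sim1* (ENSMUSG00000019913, chromosome 10, 50770826 to 50865248, plus strand), a bHLH-PAS gene expressed along the nephric duct, in the lateral somite and in the hypothalamus, had the largest change of the 8 tested. It had 21.3, 19.2 and 18.9 CPM in Control and 0.477, 0.414 and 0.507 in KD-1, a log2FC of -5.38 (SE 0.13, 95% interval -5.68 to -5.07, adjusted p = 2.4e-08). Its paralog *Sim2* had at most 7 counts in any library.

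**Figure D2:**
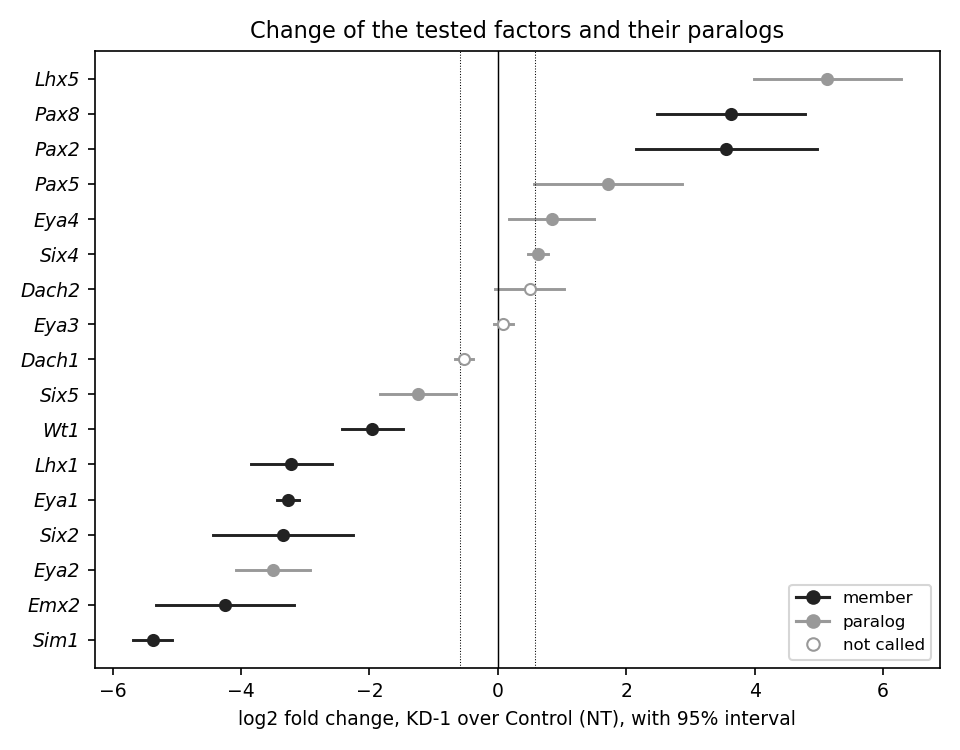
Log2FC of KD-1 over Control for the 8 members (black) and 9 paralogs and network genes (grey), with 95% intervals from edgeR; open points were not called and dotted lines mark a 1.5-fold change. *Sim1* (-5.38) and *Emx2* (-4.25) lie lowest and *Lhx5* (5.13), *Pax8* (3.63) and *Pax2* (3.56) highest.

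The other sine oculis and EYA genes moved apart within each family. *Eya2*, a second EYA coactivator, had 8.01, 15.3 and 12.4 CPM in Control and 1.12, 1.20 and 0.921 in KD-1, a log2FC of -3.50 (SE 0.25, adjusted p = 6.6e-06). *Six5* fell as well (log2FC -1.25, SE 0.26, adjusted p = 0.0028). *Six4* rose from 42.7 ± 2.94 to 65.7 ± 0.827 CPM (SD, n = 3 each), a log2FC of 0.62 (SE 0.07, adjusted p = 6.1e-05) that was just over the threshold and under it without Control's library of middle depth (0.58). *Eya4* was called higher (0.84, SE 0.29, adjusted p = 0.031), and this call was lost when any 1 of 4 libraries was left out (adjusted p between 0.067 and 0.12).

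*Eya3*, the most widely expressed EYA gene, had 68.2, 59.2 and 66.2 CPM in Control and 68.8, 67.7 and 69.0 in KD-1. The log2FC was 0.09 (95% interval -0.06 to 0.24, adjusted p = 0.28), an interval that lies within a 1.5-fold change. The DACH genes encode corepressors of the same network. *Dach1* had a log2FC of -0.53 (SE 0.06, adjusted p = 1.3e-04), lower by less than 1.5-fold, and *Dach2* had 0.50 (SE 0.24, adjusted p = 0.096), which was not called, but was called by limma-voom (0.60, adjusted p = 0.028) and without the shallowest Control library (0.76). *Six6*, a gene of the eye and hypothalamus, had 1, 0 and 2 counts in Control and 8, 12 and 21 in KD-1, and a ratio of summed levels of 9.08 (95% exact interval 2.90 to 45.8, counting error only). It did not pass edgeR's filter on low counts, but was called higher by DESeq2 (adjusted p = 0.019) and by edgeR with no filter (adjusted p = 0.018). *Six3* had 0 counts in Control and at most 3 in KD-1, and was not called by edgeR with no filter (adjusted p = 0.14). Of the 15 paralogs and network genes listed, 10 passed the filter, and 3 were called lower and 4 higher. Their median log2FC was 0.29. The shares over all genes tested were 18.1% called lower and 19.7% higher.

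Per length, 3 EYA genes shared most of the family level in Control and 1 held most of it in KD-1. *Eya1* and *Eya2* together with *Eya3* carried the EYA level in Control, at 29.9% ± 1.72, 21.4% ± 5.96 and 47.8% ± 5.01, whereas *Eya3* alone made up 88.3% ± 0.903 in KD-1 (SD, n = 3 each). The log2 ratio of *Eya1* to *Eya2* overlapped between the groups (1.87 ± 0.50 in Control against 1.98 ± 0.16 in KD-1, exact permutation test, p = 0.80, adjusted p = 0.80). The log2 ratio of *Sim1* to *Sim2* did not overlap (7.37 ± 1.05 in Control, 2.46 ± 0.93 in KD-1, exact p = 0.10, adjusted p = 0.25), with *Sim2* near the counting limit throughout.

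**Figure D3:**
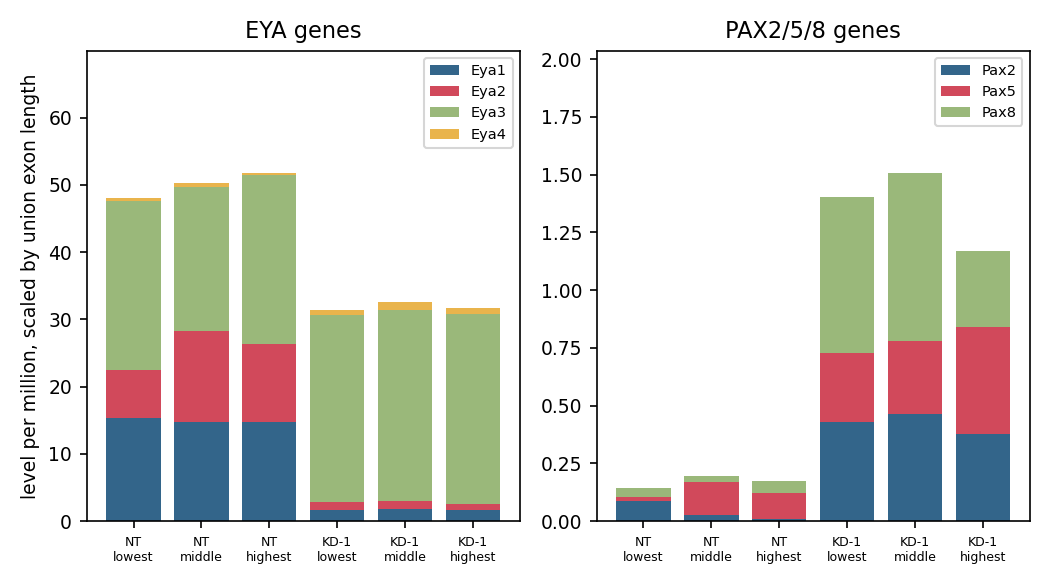
TPM-like levels (counts scaled by exon length), stacked by gene, in each of the 6 libraries for the EYA genes and for *Pax2*, *Pax5* and *Pax8*; the 2 vertical axes differ. The blue *Eya1* and red *Eya2* parts shrink in KD-1, the green *Eya3* part does not, and the PAX stacks are taller in KD-1.

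On the same length-scaled measure the order of the 9 genes differed between the groups. In Control *Eya1* led (14.9 ± 0.299), followed by *Sim1* (6.66 ± 0.450), *Emx2* (2.80 ± 0.324), *Lhx1* (2.46 ± 0.497), *Six2* (1.72 ± 0.813), *Wt1* (1.44 ± 0.200), *Pax2* (0.0408 ± 0.0415), *Pax8* (0.0389 ± 0.0148) and *Osr1* (0.00449 ± 0.00778). *Eya1* stood clear of *Sim1*, and *Sim1* of *Emx2*, whereas neighbours from *Emx2* to *Wt1*, and *Pax2* and *Pax8*, overlapped in their libraries. In KD-1 *Eya1* still led (1.73 ± 0.0510), now followed by *Pax8* (0.578 ± 0.217), *Pax2* (0.423 ± 0.0440) and *Wt1* (0.409 ± 0.0547). *Lhx1* (0.298 ± 0.0949), *Six2* (0.196 ± 0.0494), *Sim1* (0.174 ± 0.0151) and *Emx2* (0.140 ± 0.119) came next, and *Osr1* (0.00470 ± 0.00474) was last (SD, n = 3 for each gene and group). Each of the neighbours from *Pax8* down to *Emx2* overlapped with the next. *Sim1* was second in Control and seventh in KD-1, where its libraries overlapped with those of *Six2* and *Emx2*. The mean levels of *Pax2* and *Pax8* were last but *Osr1* in Control and next to *Eya1* in KD-1, with *Wt1* overlapping *Pax2*. The order in KD-1 depended on the length used: by the longest transcript *Pax8* had 0.880, *Wt1* 0.618 and *Pax2* 0.453, with *Wt1* above *Pax2* and no overlap, and *Sim1* (0.164) came before *Six2* (0.154).

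By the distance between their log2 CPM profiles over the 6 libraries, each centred on its own mean, *Rab3il1* (distance 0.233) was among the 2 nearest to *Eya1* of 13325 genes with a mean of at least 1 CPM in either group. *Wt1* was nearest to *Ephb3* (0.244) and *Slc2a4* (0.271), *Lhx1* to *Podn* (0.307) and *Ifi27* (0.329), and *Sim1* to *Ets1* (0.377) and *Col3a1* (0.428). The low members had looser neighbours, *Klhl14* (0.542) and *Bmper* (0.591) for *Emx2*, *Metrn* (0.690) and *Tuba3a* (0.720) for *Six2*, *Nos1* (0.589) and *Ccdc3* (0.664) for *Pax2*, and *Sybu* (0.627) and *Gm48244* (0.766) for *Pax8*. With 2 groups of 3 libraries such likeness is mostly a like fold change.

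Genes of the nephric lineage other than the members did not move one way. Of 26 listed, 20 were tested, and 8 were called lower and 5 higher, with a median log2FC of -0.30. For all genes tested these shares were 18.1% lower and 19.7% higher. *Foxd1*, a marker of the renal stroma, fell from 6.80, 14.0 and 7.80 to 0.334, 0.299 and 0.403 CPM (log2FC -4.74, SE 0.34, adjusted p = 5.7e-06). *Tfap2b*, a gene of the distal nephron and of the neural crest, rose from 0.193, 0.237 and 0.199 to 17.3, 18.7 and 18.2 CPM, a log2FC of 6.41 (SE 0.15), and lies on chromosome 1. *Sall1*, the most abundant gene of the list and also a gene of ESCs, had 93.2 ± 4.13 CPM in Control and 82.1 ± 1.05 in KD-1 (SD over 3 libraries each), a log2FC of -0.18 that was not called. *Gdnf* and *Fgf20*, signals of the kidney mesenchyme, had at most 3 counts in every library. The summed level of the list was 226 ± 6.90 CPM in Control and 272 ± 6.91 in KD-1 (SD, n = 3 each). One gene, *Emb*, went from 48.8 ± 3.57 to 105 ± 3.22 CPM (log2FC 1.098, SE 0.07, adjusted p = 2.6e-06), a larger difference than that of the sum.

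Markers of differentiated kidney epithelium were mixed. Of 12 listed, 6 were tested, 2 were called lower and 2 higher, beside 18.1% lower and 19.7% higher over all genes tested. *Nphs1*, which encodes the podocyte protein nephrin, had 10.80, 10.95 and 10.74 CPM in Control and 12.17, 11.95 and 11.42 in KD-1 and was not called (log2FC 0.13, SE 0.08, adjusted p = 0.20). *Aqp2*, the water channel of the collecting duct, had 0 counts in all 6 libraries, and *Slc34a1*, of the proximal tubule, at most 1. *Podxl*, the most abundant gene of the list and one that pluripotent cells also express, rose from 15.0, 12.8 and 15.3 to 60.2, 58.2 and 57.8 CPM (log2FC 2.03, SE 0.08). *Lrp2*, an endocytic receptor of the proximal tubule and the neural tube, rose from 16.1 ± 6.58 to 57.0 ± 0.503 CPM (1.83, SE 0.26; SD, n = 3 each).

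Several members are shared with neighbouring mesoderm, and the markers of these tissues stand beside them here; their part in the changes of the 9 genes was not tested. All 11 somite genes tested, of 12 listed, were called lower, with a median log2FC of -6.33. They were led by *Meox1* (-9.77), *Foxc2* (-8.49) and *Tbx18* (-7.29). The counts in this paragraph are descriptions, and 5 of the 11, among them *Foxc2* and *Tbx18*, reached the filter's minimum in every library of Control alone. Among all genes tested, 18.1% were called lower and 19.7% higher. The summed somite level went from 554, 634 and 573 CPM in the Control libraries to 56.1, 55.6 and 56.3 in KD-1. Of 10 gonad and mesothelium genes, 6 were tested, 4 were called lower and 1 higher. *Aldh1a2*, an enzyme of retinoic acid synthesis that is also expressed in somites, fell from 41.4 ± 3.98 to 1.58 ± 0.465 CPM (-4.67), *Podn* by 3.08 and *Gata4* by 2.48 on the log2 scale, *Cbx2* was the most abundant gene, and *Tcf21* had 0 counts in every library. Of 10 lateral plate genes, 5 were tested. *Foxf1*, *Prrx1* (-2.27) and *Isl1* were called lower, *Tbx4* (1.80) and *Bmp4* (1.14) higher, and *Hand1* had at most 2 counts in every library. The 12 presomitic and tail bud genes, markers of the posterior end of a gastruloid, were mixed, with 5 of the 11 tested called lower and 2 higher. Among them *Cdx2* (-1.25) and *Rspo3* (-1.36) fell and *Fgf17* rose (1.57), *Dll1* was the most abundant, and *Msgn1* had at most 3 counts in any library.

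*Pax2*, *Pax8* and *Lhx5*, which rose, are also expressed in the developing nervous system, whose markers are given beside them. So are *Lhx1* (log2FC -3.22), *Emx2* (-4.25) and *Sim1* (-5.38), which fell. Of 12 spinal cord and hindbrain genes, 10 were tested, 7 were called higher and none lower, with a median log2FC of 1.29. Over all genes tested, 19.7% were called higher and 18.1% lower. Among the 10, 3 reached the filter's minimum in every library of KD-1 alone, *En1* being one of them. *Gad1*, which encodes the enzyme that makes GABA, went from 0.338, 0.651 and 0.505 to 6.66, 6.90 and 6.53 CPM (3.69, SE 0.20), *En1*, a homeobox gene of midbrain, hindbrain and ventral interneurons, from 0.145, 0.562 and 0.794 to 3.65, 2.51 and 2.86 CPM (2.42, SE 0.39; chromosome 1), and the neural progenitor gene *Sox1*, the most abundant of the list, from 12.5, 13.6 and 11.3 to 43.1, 45.6 and 43.4 CPM (1.82, SE 0.08). The summed level of the list went from 42.5, 47.9 and 41.3 to 105, 109 and 105 CPM. Of 12 midbrain, forebrain and placode genes, 6 were tested, and *Otx2* (3.30) and *En2* (1.22) were called higher and *Tbx2* (-3.81) lower. The part of these neural genes in the rise of *Pax2* and *Pax8*, or in the fall of *Lhx1*, *Emx2* and *Sim1*, was not tested.

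**Figure D4:**
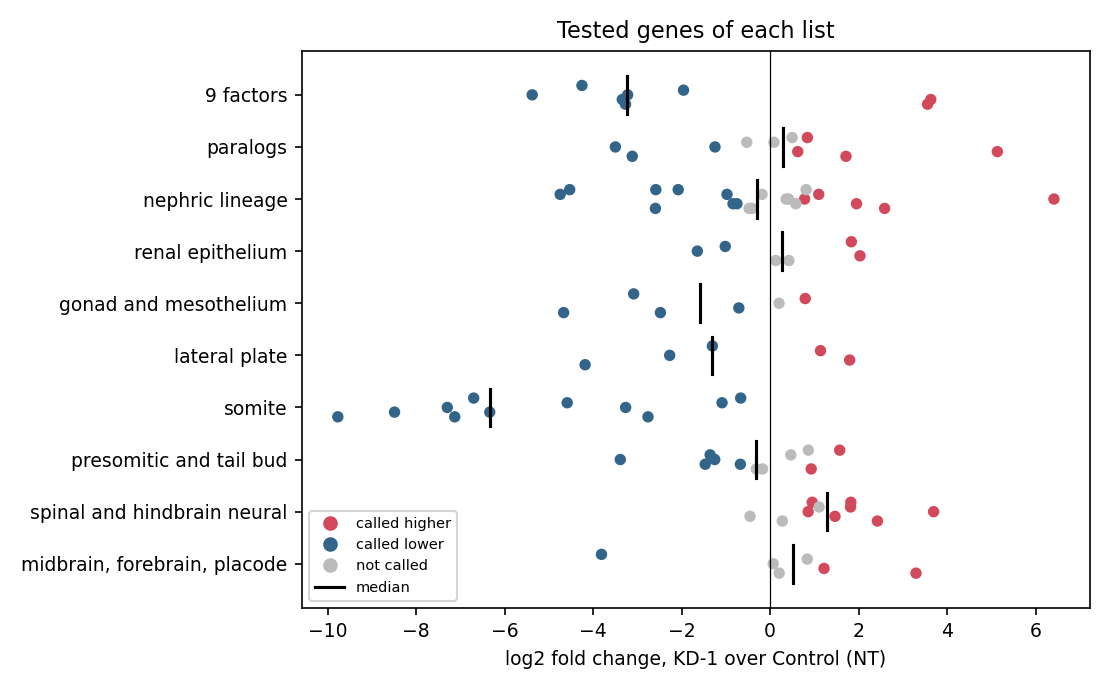
Log2FC of KD-1 over Control for the tested genes of each list, 1 point for each gene, coloured by its call (red higher, blue lower, grey not called), with the median of the list as a bar. All 11 somite genes are blue, the nephric genes spread to both sides, and the 9 factors, of which 8 were tested, have 6 blue and 2 red points.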

How the data were processed

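Total RNA of 3 Control (NT) and 3 KD-1 gastruloid samples was made into TruSeq libraries, and paired-end reads were quantified with Salmon (version 1.1, per the submitters' processing notes) against a Gencode annotation, whose release number the study's methods give without its species series or genome build. The authors deposited estimated counts (expected counts) per Ensembl gene, in whole numbers and not normalized; use of strand is not given in the sources used here. Column suffixes do not match the replicate numbers of the labels, so libraries are named by depth. Library totals lay between 20982249 and 85561026.

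Names, positions and exon lengths came from GENCODE vM39 (GRCm39), which matched 35222 of 35565 identifiers. Genes were tested with edgeR 4.0.16 (filterByExpr, TMM with factors between 0.975 and 1.03, robust quasi-likelihood fit, Benjamini-Hochberg adjustment over 15110 genes). Some genes of the lists reached the filter's minimum in every library of only KD-1, such as *Lhx5*, *Tfap2b* and *En1*, or of only Control, such as *Foxf1*. Standard errors are the absolute log2 fold change over the root of F. Per-length levels divide counts by the union of annotated exons, a length that may differ from the one used by Salmon. Paralog ratios were compared by exact permutation over libraries. In a simulation of this comparison on 15110 genes, 200 were shifted by 1.5 on the log2 scale. Of these, edgeR tested 196 and called 171, with 3 false calls among 14688 unshifted genes. In the data 37.7% of the genes tested were called, a far larger share than was shifted. The simulation therefore does not cover normalization or false calls when so many genes change.

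The members, lists, tests and alternatives were chosen with earlier results of these data known. Named genes are the members, their paralogs, in each other list the 3 largest called changes at 1 CPM or more and the most abundant gene, and the 2 nearest profiles of each member; *Isl1*, *Foxf1*, *Emb*, *Nphs1* and genes named as near the counting limit were chosen after their values were seen. Alternatives were DESeq2 1.42.0, limma-voom 3.58.1, other normalizations, filters and fold thresholds, and leaving out each library. Some genes of the lists, and 1 of the 5 paralog ratios, are not reported here; counts, medians and adjusted p-values still include them.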

Additional observations from a re-analysis of the deposited data

How the results depend on the processing

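All 8 tested members kept their direction and stayed called under every alternative in which they were tested. Over these, the log2 fold change lay between 2.84 and 4.50 for *Pax2*, 3.30 and 4.02 for *Pax8*, -3.46 and -3.05 for *Lhx1*, -2.07 and -1.87 for *Wt1*, -5.26 and -3.85 for *Emx2*, -3.63 and -3.01 for *Six2*, -5.45 and -5.29 for *Sim1*, and -3.76 and -3.21 for *Eya1*. With at least 10 counts required in every library, *Pax2*, *Pax8*, *Emx2* and *Six2* were not tested, so 0 members were called higher there; that filter also gave 2 paralogs, 1 lateral plate and 4 spinal and hindbrain genes called higher, and 6 somite and 0 midbrain, forebrain and placode genes called lower. The number of all genes called was 3274 at an absolute log2 fold change over 1, 9597 with no fold threshold and 3763 with a test against 1.5-fold (glmTreat). At a log2 fold change over 1, 2 paralogs, 0 gonad and mesothelium genes and 1 presomitic gene were called higher and 5 nephric genes lower, and glmTreat called 1 paralog and 0 gonad and mesothelium genes higher and 1 renal epithelium gene lower. Library size alone gave 1 renal epithelium gene lower, and no filter gave 4 higher. With 1 library left out, between 2 and 5 paralogs were called higher and between 1 and 2 renal epithelium genes lower, and the group difference in the log2 ratio lay between -0.865 and 0.19 for *Pax2* to *Pax8* and between -0.085 and 0.39 for *Eya1* to *Eya2*. With 0.5 CPM added, it was -4.01 for *Lhx1* to *Lhx5* and -0.20 for *Eya1* to *Eya2*. Scaling per length by the longest transcript put *Wt1* before *Lhx1* in Control (NT) and before *Pax2* in KD-1. Some of these settings tested other genes or used fewer libraries, and the causes of the shifts were not tested. Counts near 0 limit *Osr1*, and *Pax2* and *Pax8* in Control (NT). No paired analysis was run, because the columns could not be matched to the replicate numbers of the labels.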
